A study of Mus musculus with 36 samples.

Results

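XY germ cells were compared with XX germ cells sorted from fetal mouse gonads at 13.5 days post coitum (dpc), with 3 arrays of each sex. These 6 arrays are those whose titles name the Oct4 reporter, the sex and this stage, out of 36 arrays in the series. Expression was read over 19103 autosomal genes of 19938 genes tested. Both sexes carried a fluorescent Oct4 (Pou5f1) reporter, which marks germ cells in the fetal gonad, and the labels give both the same strain, offspring of C57BL/6NJ on a mixed background. The XY arrays are labelled male and the XX arrays female. Gonads of a sex were pooled and trypsinised before the DAPI-stained cells were sorted, so an array stands for a pool and not for 1 fetus. No treatment is given in the labels. The same reporter and strain were used for XY and XX germ cells at 12.5 and 11.5 dpc, which serve here as earlier stages of the same contrast. Supporting cell arrays at 13.5 dpc are given below as reference levels. Their titles name other reporters, Sox9 for XY and Sry for XX, so the sexes of supporting cells differ in reporter too. Whether replicates of a group were separate litters, pools or sorts is not stated. The p-values here thus rest on the spread among the arrays, and that spread may be technical.

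In the mouse, germ cells of both sexes reach the gonad as similar, dividing, pluripotency-expressing cells. In an ovary they then enter meiosis, which needs the retinoic-acid-responsive factor STRA8. In a testis they stay out of meiosis, arrest in the cell cycle and turn on a male programme that includes the RNA-binding protein NANOS2, and later the machinery that silences transposons. NODAL signalling through its co-receptor CRIPTO (Tdgf1) is known in XY germ cells of this age, and BMP and retinoic acid signalling in XX germ cells.

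Values are log2 levels, and a difference is XY minus XX on that scale. Arrays were centred on their autosomal median. A gene was called where its Benjamini-Hochberg adjusted p over all genes tested was below 0.05 in a limma fit on 17 germ cell arrays. The deposited values of an array fall into interleaved sets of probe sets, each with its own slope and offset, so each result was also computed after these sets were aligned. Split by the sets of 1 XX array, the median difference at 13.5 dpc was -0.145, 0.035 and 0.233, and 0.027 to 0.028 after alignment, a shift of between -0.173 and 0.205. Counts of list members below therefore give genes called in the same direction under both scalings, unless stated. Differences and adjusted p-values of single genes are those of the centred values, and a gene described as not called was called under neither scaling. The germ cell array labelled XX 12.5 dpc replicate 3 was left out, because its level of Ddx4, a germ cell RNA helicase, was 4.88 against 10.63 to 12.19 in the other 17 germ cell arrays. This array belongs to neither group compared and would enter only through the spread. Where its return to the fit cut the calls of a list by over 1.5 times, the number that held is given.

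The labels were checked on marker genes. Ddx4 lay between 11.55 and 11.99 in the XY arrays and between 11.68 and 12.19 in the XX arrays, and the RNA-binding germ cell protein gene Dazl between 10.84 and 11.06 in XY and between 10.93 and 11.47 in XX. The Y-linked gene Eif2s3y lay between 9.82 and 9.92 in the XY arrays and between 4.35 and 4.85 in the XX arrays. Xist, the RNA that coats an inactive X chromosome, lay between 5.86 and 6.51 in XY and between 6.927 and 6.999 in XX germ cells, against 11.06 to 11.44 in XX supporting cells. The reporter's own gene, Pou5f1, was present in both sexes, at 10.86 to 10.95 in XY and 9.75 to 10.49 in XX. Correlations between arrays of a group lay between 0.9806 and 0.9912 for XY and between 0.9752 and 0.9875 for XX.

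Between the sexes, 1050 autosomal genes were higher in XY and 847 lower, which is 9.93% of the genes tested, with 5.5% higher and 4.43% lower. After alignment 3630 were called (19%), 2044 higher (10.7%) and 1586 lower (8.3%). Under both scalings 1734 were called (9.08%), 955 higher (5.0%) and 779 lower (4.08%). These last shares stand beside the list counts below, and 10.7% and 8.3% beside the counts after alignment alone. With the XX 12.5 dpc array that was left out put back into the fit, the centred count was 874. Beyond 1 log2 unit, 315 were higher and 281 lower under both scalings. The groups' arrays did not overlap for 5196 genes (27.2%). The median difference over autosomal genes was 0.038, and 0.028 after alignment. In bulk samples such as these, fewer cells of a type and less RNA per cell cannot be told apart.

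The promoters of 4 genes are shown because their levels mark the 2 sides of the comparison and its strength: Stra8, Meioc and Sycp3 on the meiotic side and Nanos2 on the male side. Each runs 5′ to 3′ from 250 bases before to 50 after the annotated start, on the plus strand of GRCm38.p6, from RefSeq. Capitals mark matches, on either strand, to AGGTCA (a half-site of retinoic acid receptors), CACGTG (an E-box) and TTCCCGC (an E2F-type motif).
Stra8, chr6:34920698-34920997: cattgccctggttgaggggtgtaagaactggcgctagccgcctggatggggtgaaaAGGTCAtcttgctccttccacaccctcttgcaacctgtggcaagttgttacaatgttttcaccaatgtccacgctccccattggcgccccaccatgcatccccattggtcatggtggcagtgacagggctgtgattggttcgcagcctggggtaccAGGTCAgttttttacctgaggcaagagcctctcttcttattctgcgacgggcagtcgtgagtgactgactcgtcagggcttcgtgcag
Meioc, chr11:102665335-102665634: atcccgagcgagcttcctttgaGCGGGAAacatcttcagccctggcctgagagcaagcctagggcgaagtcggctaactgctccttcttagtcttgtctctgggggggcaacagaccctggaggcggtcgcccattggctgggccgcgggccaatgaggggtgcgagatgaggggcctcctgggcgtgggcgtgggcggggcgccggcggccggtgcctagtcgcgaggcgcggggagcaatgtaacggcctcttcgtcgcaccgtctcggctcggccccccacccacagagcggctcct
Sycp3, chr10:88459337-88459636: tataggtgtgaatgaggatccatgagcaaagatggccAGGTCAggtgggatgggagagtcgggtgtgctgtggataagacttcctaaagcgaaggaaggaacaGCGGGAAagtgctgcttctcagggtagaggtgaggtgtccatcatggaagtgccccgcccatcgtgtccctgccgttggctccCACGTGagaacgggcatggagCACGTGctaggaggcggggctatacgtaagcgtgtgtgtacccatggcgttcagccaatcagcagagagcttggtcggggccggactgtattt
Nanos2, chr7:18987274-18987573: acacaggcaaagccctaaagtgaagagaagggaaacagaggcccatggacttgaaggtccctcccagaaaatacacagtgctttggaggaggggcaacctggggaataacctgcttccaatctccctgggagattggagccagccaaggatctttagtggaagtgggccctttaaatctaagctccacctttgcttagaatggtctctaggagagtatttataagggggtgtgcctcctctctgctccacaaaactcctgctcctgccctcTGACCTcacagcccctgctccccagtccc
The Stra8 window held AGGTCA at -194 and -38 relative to the start. The Sycp3 window held AGGTCA at -213, CACGTG at -64 and -43, and the reverse complement of TTCCCGC at -147. Meioc held the last motif at -228, and Nanos2 held the reverse complement of AGGTCA at 21, past its start. Such short matches are common: of 18382 promoters of the autosomal genes tested, 14.3% held AGGTCA, 8.23% CACGTG and 6.39% TTCCCGC. These matches describe the sequence and are not evidence of binding.

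Genes of meiotic entry were lower in XY germ cells. Of 12 measured genes of a list of meiotic initiation, 7 were lower and 0 higher, with a median difference of -0.72 against 0.038 over all autosomal genes. Stra8, whose product is needed for meiotic initiation, stood at 5.42, 5.64 and 5.70 in the XY arrays, against 10.24, 10.12 and 10.42 in the XX arrays. The 3 XY arrays lay far below the 3 XX arrays, close to the XY and XX supporting cell means of 5.12 and 5.36. The difference was -4.68 ± 0.21 (SE), a 25.5-fold lower level, with an adjusted p of 2e-23 in the limma fit. Stra8 was the gene with the largest negative difference of the autosomal genes.

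Meioc, whose product acts with the RNA-binding protein YTHDC2 to sustain the meiotic programme, was next. It measured 5.25, 4.98 and 5.41 in XY arrays and 9.38, 9.70 and 10.30 in XX arrays. The groups did not overlap, and the XX arrays were spread over almost 1 log2 unit. The difference was -4.58 ± 0.30, with an adjusted p of 4.51e-17 in the limma fit. Rec8, the meiotic cohesin subunit, measured 6.77, 6.53 and 6.75 in XY and 8.83, 9.16 and 9.36 in XX. Its difference was -2.43 ± 0.21, with an adjusted p of 4.21e-13 in the limma fit. The levels of Ythdc2 itself stood apart by less: 8.53, 8.33 and 8.38 in XY against 9.59, 9.12 and 9.75 in XX, a difference of -1.08. Msx2, a homeobox target of BMP signalling, differed by -1.33. Dazl, which licenses germ cells for meiosis, was not called, with a difference of -0.35 and an adjusted p of 0.356 in the limma fit, and Cyp26b1, the enzyme that degrades retinoic acid, had a difference of 0.16.

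**Figure D1:**
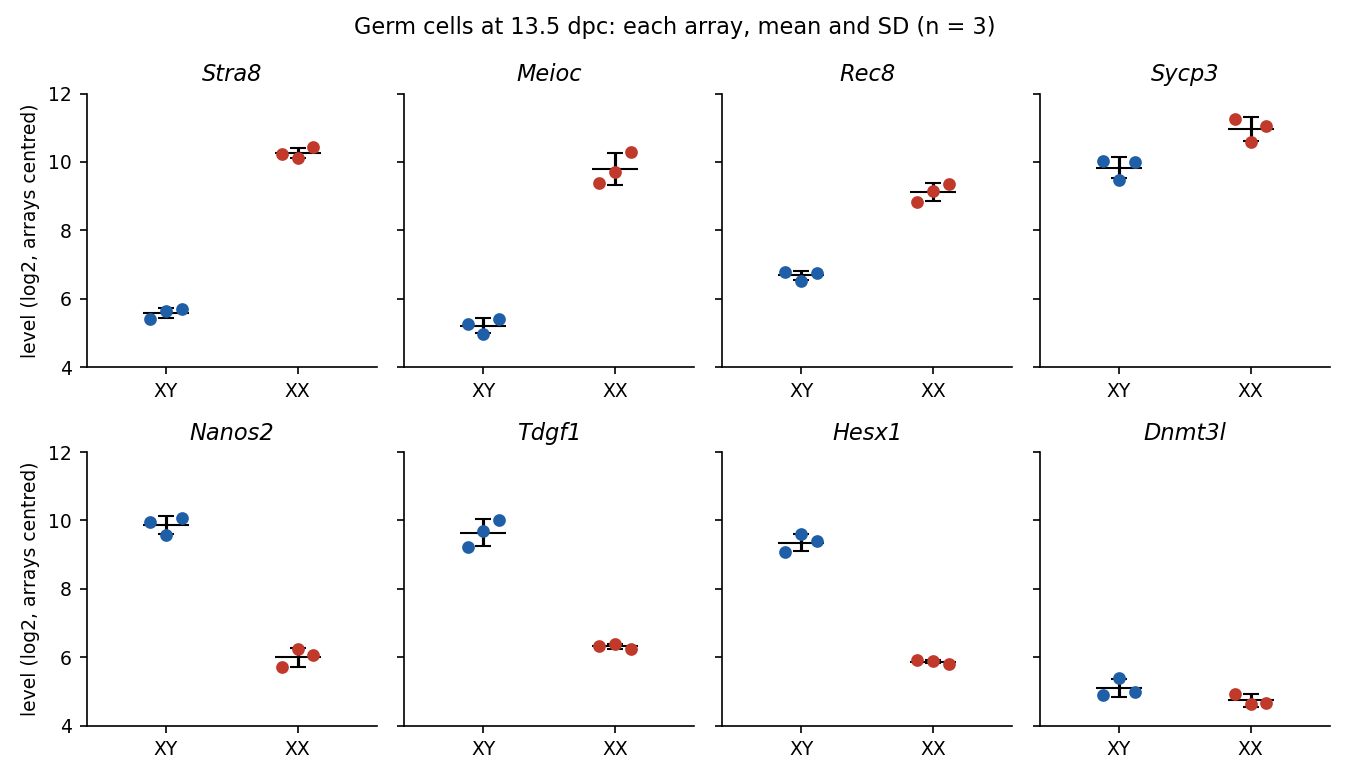
Centred log2 level (vertical axis) in each of the 3 XY and 3 XX germ cell arrays at 13.5 dpc for 8 genes; points are arrays, with the mean ± SD beside them. Stra8 lay between 5.42 and 5.70 in XY and between 10.12 and 10.42 in XX, Nanos2 between 9.57 and 10.07 in XY and between 5.70 and 6.25 in XX, and Dnmt3l overlapped between the sexes.

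The proteins that build the chromosome axis and the synaptonemal complex, which holds paired homologues together, were encoded by genes that were lower in XY in 14 of 19 cases, with 0 higher under both scalings and a median of -1.13. After alignment alone, 2 members were also called higher. With the left-out array in the fit, 4 of the 14 calls held, those of Rec8, Rad21l, Majin and Terb1. The size of the difference varied within the complex. Terb1, which ties telomeres to the nuclear envelope, measured 5.12, 4.99 and 5.49 in XY and 8.85, 7.71 and 8.90 in XX, a difference of -3.29. Its partner Majin differed by -1.28. Among the central region genes, Syce1 measured 8.86, 8.88 and 8.46 in XY and 10.63, 10.39 and 11.09 in XX, a difference of -1.97. The axis cohesin genes Smc1b, Rad21l and Stag3 differed by -1.53, -1.60 and -1.04, and the axis genes Hormad1 and Hormad2 by -1.48 and -1.18. The XY arrays of Rad21l lay between 4.74 and 4.82, and its XX arrays were uneven, at 6.17, 5.32 and 7.65.

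Sycp3, the axis protein most used to stain meiotic chromosomes, had the median difference of this list. It measured 10.02, 9.48 and 10.01 in the XY arrays and 11.25, 10.58 and 11.04 in the XX arrays. The groups did not overlap, but the nearest arrays were about as far apart as the arrays within a sex. The difference was -1.13 ± 0.22, with an adjusted p of 0.000241 in the limma fit. This call was lost when the XX 12.5 dpc array with little Ddx4 was put back into the fit, with an adjusted p of 0.517 by limma. Sycp2, which pairs with SYCP3 in the axis, was not called, with a difference of -0.08.

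Of 22 measured genes of meiotic recombination, 14 were lower and 0 higher, with a median of -0.87. After alignment alone 17 were lower and 2 higher, and with the left-out array in the fit 8 of the 14 calls held. Those 8 were Prdm9, Mei1, Iho1, Dmc1, Meiob, Spata22, Msh5 and Brca2. Meiob and Spata22, whose products form a complex on single-stranded DNA, had the largest differences. Meiob measured 4.63, 5.63 and 4.82 in XY and 8.96, 8.71 and 9.45 in XX, and Spata22 had 4.79, 4.57 and 5.03 in XY and 8.01, 8.03 and 8.89 in XX. Both genes were low in all 3 XY arrays and in supporting cells, whose means lay between 4.20 and 4.54. Their differences were -4.01 and -3.51. Prdm9, the histone methyltransferase that places recombination hotspots, differed by -2.89, and Dmc1, the meiotic strand exchange protein, by -2.60. Brca2, which acts with DMC1, measured 9.83, 9.43 and 9.07 in XY and 10.68, 10.63 and 11.09 in XX, a difference of -1.36. Hfm1, a helicase needed for crossovers, differed by -1.44, Rec114, a partner in the making of double-strand breaks, by -1.32, and Msh4, of the MutS complex that stabilises crossovers, by -0.97. Members that were not called included Psmc3ip (-0.08) and Mlh3 (-0.02). Brca1 (-0.27) was called lower after alignment alone (-0.52). Spo11, the nuclease that makes the breaks, was called in the centred values at -0.86 but not after alignment, with an adjusted p of 0.0895 by limma.

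**Figure D2:**
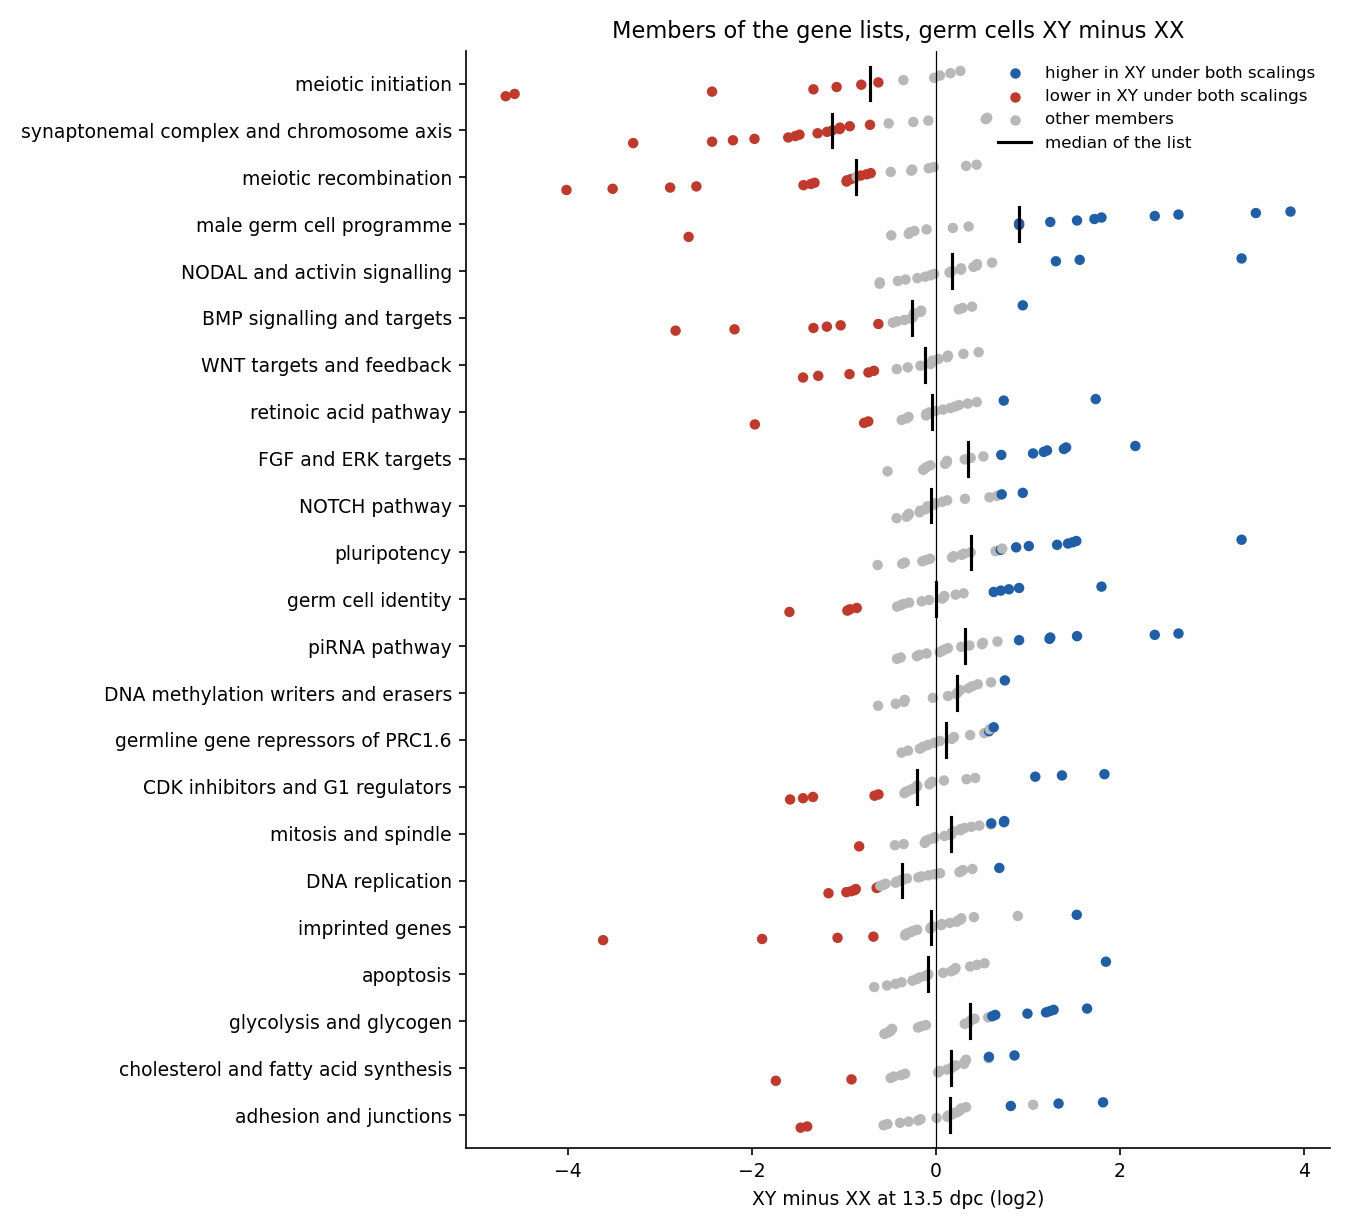
Log2 difference, XY minus XX at 13.5 dpc (horizontal axis), of each autosomal member of 23 gene lists (rows); blue and red points were called higher and lower in XY under both scalings, grey points were not, and black bars are list medians. The 3 meiotic lists lie to the left of 0, at medians of -0.72, -1.13 and -0.87, and the male germ cell list to the right, at 0.91.

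The 34 members of these 3 lists that were lower in XY had 33 promoters for 29 genes in the RefSeq table. TTCCCGC was found in 39.4% of these promoters and CACGTG in 27.3%, against 6.39% and 8.23% of all 18382 promoters. Among the 17 promoters of members that were not lower, the shares were 5.88% and 11.8%. AGGTCA was in 18.2% and 17.6% of these same 2 sets, against 14.3% of all promoters. Over all autosomal genes lower in XY under both scalings, 12.2% of 843 promoters held TTCCCGC and 7.47% CACGTG. For CACGTG the order was the reverse of that in the meiotic lists, with 13.8% of the 940 promoters of genes higher in XY, of which 8.19% held TTCCCGC. The sets were formed by the calls and a gene can have several promoters, so the shares are a description without a test.

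On the other side, 10 of 18 genes of a male germ cell programme were higher in XY under both scalings and 1 was lower, with a median of 0.91. Nanos2 measured 9.95, 9.57 and 10.07 in the XY arrays and 5.70, 6.25 and 6.07 in the XX arrays. The 3 XX arrays were near the supporting cell means of 5.88 for XY and 5.82 for XX. The difference was 3.86 ± 0.24, a 14.5-fold higher level, with an adjusted p of 2e-18 in the limma fit. Nanos3, a paralogue that protects germ cells of both sexes from death, measured 9.39, 9.67 and 9.42 in XY and 7.71, 7.70 and 7.66 in XX. Its difference was 1.80, and the arrays of each sex lay close together. The homeobox gene Hesx1 measured 9.07, 9.59 and 9.39 in XY and 5.91, 5.89 and 5.81 in XX, a difference of 3.48. The homeobox gene Lhx1 differed by 1.73.

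Genes of transposon silencing were part of the same side. Of 20 measured members of the piRNA pathway, in which small RNAs guide silencing, 6 were higher and 0 lower, with a median of 0.32. With the left-out array in the fit, 4 of the 6 calls held. Piwil4, Morc1, Tdrd1, Tdrd5 and Pnldc1 are also members of the male list and were counted in both. Of the 6 called genes only Exd1 was outside the male list. Morc1, an ATPase needed to repress transposons in male germ cells, measured 8.98, 8.28 and 8.91 in XY and 6.19, 6.00 and 6.06 in XX. Tdrd5, a Tudor protein of the germ granule, measured 11.38, 11.07 and 11.38 in XY and 9.13, 8.69 and 8.86 in XX. The differences were 2.64 for Morc1 and 2.38 for Tdrd5. Piwil4, the nuclear PIWI protein of fetal testis germ cells, measured 8.06, 7.11 and 7.71 in XY and 6.11, 6.01 and 6.14 in XX, a difference of 1.54. Tdrd1 differed by 1.25. The cytoplasmic partner Piwil2 (0.51), the helicase Mov10l1 (-0.10) and Mael (-0.38) were not called.

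Dnmt3l, the cofactor of de novo methylation in male germ cells, averaged 5.09 in XY and 4.74 in XX. Its arrays overlapped, and its difference of 0.36 was not called, with an adjusted p of 0.304 in the limma fit and 0.114 after alignment. Array weights gave an adjusted p of 0.00791 by limma. Of 14 genes that write or erase DNA methylation, 1 was higher under both scalings and 0 lower, beside 5.0% and 4.08% of autosomal genes. After alignment alone 1 was higher and 2 lower, and with the left-out array 0 of the calls made under both scalings held. Tex101, a germ cell surface protein of the male list, went the other way: it measured 8.004, 6.80 and 7.52 in XY and 10.17, 9.50 and 10.71 in XX, a difference of -2.69.

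Of 19 members of NODAL and activin signalling, 3 were higher and 0 lower under both scalings, with a median of 0.18. After alignment alone 7 were higher and 2 lower. Tdgf1, the co-receptor, measured 9.23, 9.70 and 10.01 in the XY arrays and 6.33, 6.38 and 6.24 in the XX arrays. The XY arrays were more spread than the XX arrays, and the groups stood far apart. The difference was 3.33 ± 0.23, with an adjusted p of 1.05e-16 in the limma fit. The feedback inhibitors Lefty1 and Lefty2 differed by 1.57 and 1.31. Lefty1 measured 6.63, 6.79 and 6.86 in XY and 5.23, 5.21 and 5.13 in XX. Nodal itself (0.28) was called after alignment alone (0.41). The receptor genes Acvr1b (0.45) and Acvr2b (0.28) and the signal transducer Smad2 (-0.33) were not called.

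Of 20 members of the BMP list, 6 were lower and 1 higher, with a median of -0.26. Id2, an inhibitor of bHLH factors, measured 5.05, 6.27 and 5.65 in XY and 8.76, 8.55 and 8.15 in XX. Id3, of the same family, measured 6.86, 7.24 and 6.99 in XY and 8.80, 9.58 and 9.27 in XX. In both genes the lowest XX array was above the highest XY array by more than 1 log2 unit. The differences were -2.83 for Id2, -2.19 for Id3 and -1.03 for Id1, while Id4 (-0.34) was not called. Gata2, a transcription factor gene, differed by -1.18. The receptor genes Bmpr1b (0.29) and Bmpr2 (-0.47) and the transducer gene Smad1 (0.40) were not called, and the receptor gene Bmpr1a (-0.25) was called lower after alignment alone (-0.51). Hey1, listed as a target of both BMP and NOTCH, was higher by 0.95.

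WNT targets included 5 lower and 0 higher members of 16, with a median of -0.11. Ccnd1, the cyclin D1 gene, measured 8.04, 7.83 and 7.72 in XY and 9.18, 9.15 and 9.58 in XX, a difference of -1.44. The homeobox gene Cdx2 differed by -1.28 and the WNT antagonist Nkd1 by -0.94. Nkd1 lost its call with the left-out array in the fit.

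In the retinoic acid pathway 2 of 18 members were higher and 3 lower, beside 5.0% and 4.08% of autosomal genes. The median of the list was -0.04. After alignment alone 4 were higher and 5 lower, and with the left-out array in the fit 1 of the higher and 2 of the lower calls held. Crabp1, a cytoplasmic retinoic acid binding protein, measured 9.49, 9.80 and 9.68 in XY and 11.22, 11.93 and 11.71 in XX, a difference of -1.97. Aldh1a1, an enzyme that makes retinoic acid, measured 7.93, 8.34 and 7.83 in XY and 5.92, 6.73 and 6.23 in XX, a difference of 1.74. These 2 genes moved in opposite directions. The receptor genes Rarb (-0.10) and Rarg (0.08) were not called, and Rara (0.35) was called higher after alignment alone (0.45).

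FGF signalling through ERK kinases induces ETS factors and phosphatases. Of 18 members, 7 were higher in XY and 0 lower, with a median of 0.35. Etv1, an ETS factor, measured 9.31, 9.27 and 9.46 in XY and 7.40, 6.89 and 7.24 in XX, a difference of 2.17. A second probe set of Etv1 gave 2.92. Etv5, a related factor needed for spermatogonial stem cell maintenance, measured 10.96, 11.19 and 11.21 in XY and 9.69, 9.59 and 9.82 in XX, a difference of 1.42. The receptor gene Fgfr2 differed by 1.39, the ERK phosphatase genes Dusp6 and Dusp4 by 1.21 and 1.18, and the feedback inhibitor Il17rd by 1.06. Dusp4 lost its call with the left-out array in the fit. The feedback genes Spry1 (0.10) and Spry4 (-0.06) were not called, and Spry2 (0.32) was called higher after alignment alone (0.48). In the NOTCH pathway 2 of 18 members were higher and 0 lower, beside 5.0% and 4.08% of autosomal genes. The median of the list was -0.06. After alignment alone 4 were higher and 2 lower, and with the left-out array 1 of the calls made under both scalings held.

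Pluripotency genes were higher in XY in 8 of 21 cases and lower in 0, with a median of 0.38. With the left-out array in the fit 1 of the 8 calls held, that of Tdgf1. Pou5f1, the gene that names the reporter, differed by 0.88. Utf1, a chromatin factor of pluripotent cells, measured 10.87, 10.87 and 11.04 in XY and 9.36, 9.99 and 8.85 in XX. L1td1, an RNA-binding protein, measured 10.06, 10.92 and 10.55 in XY and 8.90, 9.51 and 8.65 in XX. The 3 XX arrays of both genes lay below the 3 XY arrays, and for Utf1 they were more spread than the XY arrays. The differences were 1.53 for Utf1, 1.49 for L1td1, 1.44 for Zfp42 (REX1), 1.32 for Tcl1 and 1.01 for Dppa4. Sall4 (-0.36), Lin28a (0.18) and Klf4 (-0.15) were not called, and Sox2 (0.20) was called higher after alignment alone (0.42).

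Genes of germ cell identity did not share a direction: 5 of 20 were higher and 4 lower, with a median of 0. With the left-out array in the fit 1 of these calls held, that of Nanos3. Nr6a1, an orphan nuclear receptor, measured 8.82, 9.02 and 8.89 in XY and 10.41, 10.56 and 10.53 in XX, a difference of -1.59. Sohlh2, a bHLH factor of later germ cells, differed by -0.96, and Kit, the receptor of stem cell factor, by -0.93. The 2 probe sets of Dppa3 (Stella) gave 0.63 and 1.72, so its size is uncertain.

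Of 21 inhibitors of cyclin-dependent kinases and G1 regulators, 3 were higher and 5 lower, with a median of -0.21. With the left-out array in the fit 2 of the higher and 3 of the lower calls held. The kinase genes Cdk6 and Cdk4 were higher by 1.84 and 1.08, and the cyclin genes Ccne2, Ccnd1 and Ccne1 were lower by log2 differences of -1.58, -1.44 and -1.33. The inhibitor gene Cdkn1b was higher by 1.373, and its other probe set gave 1.131. The inhibitor genes Cdkn2c and Cdkn2d were lower, at -0.622 and -0.665. The calls of these inhibitor genes were lost with the left-out array in the fit. Ccne2 measured 8.35, 7.88 and 8.04 in XY and 9.48, 9.34 and 10.20 in XX. Cdk6 measured 9.61, 8.76 and 9.20 in XY and 7.69, 7.04 and 7.34 in XX. Neither gene's groups overlapped. Of 25 genes of DNA replication, 1 was higher and 7 lower, with a median of -0.37. After alignment alone 13 were lower and 2 higher, and with the left-out array in the fit 2 of the 7 lower calls held, those of Rrm2 and Orc1. Rrm2, a subunit of the enzyme that makes deoxynucleotides, measured 8.98, 9.19 and 8.99 in XY and 10.24, 10.17 and 10.24 in XX, a difference of -1.17. Gins1 and Orc1, of the replicative helicase and the origin complex, differed by -0.97 and -0.87. Of 23 genes of mitosis, 3 were higher and 1 lower, with a median of 0.17. After alignment alone 7 were higher and 1 lower, and with the left-out array in the fit 1 call held, that of Bub1b. The proliferation marker Mki67 (-0.35) and the topoisomerase Top2a (-0.12) were not called, and the kinase Cdk1 (0.10) was called higher after alignment alone (0.30).

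Among 23 imprinted genes, 1 was higher and 4 lower under both scalings, beside 5.0% and 4.08% of autosomal genes. The median of the list was -0.05. With the left-out array in the fit 2 of these calls held, those of Phlda2 and Plagl1. Phlda2, which restrains placental growth, measured 6.08, 5.75 and 6.05 in XY and 9.70, 10.09 and 8.94 in XX, a difference of -3.62. Plagl1, a zinc finger factor, measured 7.18, 6.89 and 7.08 in XY and 9.13, 8.83 and 8.86 in XX, a difference of -1.89. The growth factor gene Igf2 differed by -1.07 and Mest by 1.53. The remaining measured imprinted genes with no call included Meg3 (-0.31), Dlk1 (-0.20) and Ndn (0.42).

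Genes of glycolysis, glycogen and their regulation were higher in XY in 7 of 21 cases and lower in 0, with a median of 0.37. Of the glycolytic enzymes, Pkm, Aldoa and Pgam1 were higher by 0.998, 0.648 and 0.616. A second probe set of Pkm gave 0.665, and another of Pgam1 gave 0.883. The calls of Aldoa and Pgam1 were lost with the left-out array in the fit. Pfkfb3, which makes the activator of phosphofructokinase, measured 9.13, 9.19 and 9.28 in XY and 7.86, 7.29 and 7.51 in XX, a difference of 1.65. The pyruvate dehydrogenase kinase gene Pdk1 differed by 1.28, the glycogen synthase gene Gys1 by 1.24, and the glucose transporter gene Slc2a1 by 1.20. Hk1 (-0.16) and Ldha (-0.50) were not called, and Pfkl (-0.52) was called lower after alignment alone (-0.31). Of 19 genes of cholesterol and fatty acid synthesis, 2 were higher and 2 lower, beside 5.0% and 4.08% of autosomal genes. Scd1, a fatty acid desaturase, differed by -1.74. The 2 lower calls held with the left-out array in the fit and 0 of the higher ones did.

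Cadherin genes differed in opposite directions. Cdh1 (E-cadherin) measured 9.25, 9.21 and 9.44 in XY and 7.60, 7.42 and 7.43 in XX, and Cdh2 (N-cadherin) measured 6.998, 6.61 and 6.45 in XY and 7.85, 8.37 and 8.24 in XX. Cdh1 was thus the higher in XY and Cdh2 the lower, with no overlap in either. The differences were 1.82 for Cdh1, 1.34 for Cdh3 (P-cadherin), 0.82 for Epcam, -1.47 for Cdh2 and -1.40 for the claudin gene Cldn6. Epcam lost its call with the left-out array in the fit. Of 22 members of this list 3 were higher and 2 lower under both scalings, with a median of 0.16. After alignment alone 4 were higher and 6 lower. Of 17 apoptosis genes 1 was higher and 0 lower, beside 5.0% and 4.08% of autosomal genes. The higher gene was Pmaip1 (NOXA), with a difference of 1.85. It measured 7.98, 8.74 and 8.80 in XY and 6.94, 6.45 and 6.57 in XX.

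Genes outside the lists were among the largest differences. The gene with the largest positive difference, Mgst2, a microsomal glutathione transferase, measured 10.36, 10.63 and 10.35 in XY and 6.21, 6.04 and 5.71 in XX, a difference of 4.46 and a 22-fold higher level. Of the 20 genes with the largest positive differences, 7 belonged to a list, and of the 20 with the largest negative differences 13 did. The positive set ran down to 2.11 and included Fabp9, a fatty acid binding protein of testis (3.10), Iqcg, a component of the sperm flagellum (3.001), Dgka, a diacylglycerol kinase (2.81), Bnc2, a zinc finger protein (2.66), Enkur, a calmodulin-binding sperm protein (2.63), Cthrc1, a secreted collagen-repeat protein (2.55), Gtsf1l, a paralogue of the piRNA cofactor Gtsf1 (2.45), and Uchl1, a deubiquitinase of neurons and germ cells (2.27). The negative set ran up to -2.19 and included M1ap, a meiosis protein (-3.96), Lrrc34 (-2.82), BC051142 (-2.79), Trpc1, a cation channel (-2.74), Dnah8, an axonemal dynein (-2.36), Calcoco2, an autophagy receptor (-2.27), and Slc22a21, a carnitine transporter (-2.19). A second probe set of Calcoco2 gave -1.32. The 20 positive genes kept their calls after alignment and without each of the 6 arrays. Of the negative genes 19 did. The exception was Tex12, of the central element of the synaptonemal complex (-2.20), whose call was lost in the aligned values without XX replicate 3 or without XY replicate 1. With the left-out array in the fit, 38 of the 40 genes kept their calls in the centred values. Tex12 and Lrrc34 lost theirs.

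Markers of other gonadal cells were read beside these results. Of 18 autosomal Sertoli cell markers 3 were higher in XY germ cells and 0 lower under both scalings. These were Cst9 (3.16), Hsd17b3 (1.24) and Erbb3 (1.04), of which Erbb3 lost its call with the left-out array in the fit. Cst9, a cystatin, measured 7.54, 7.77 and 7.80 in XY germ cells and 4.76, 4.38 and 4.48 in XX germ cells, against a mean of 12.61 in XY supporting cells. The median level of the 18 markers lay between 7.16 and 7.31 in the XY germ cell arrays and between 6.74 and 6.93 in the XX arrays, and between 9.28 and 9.46 in XY supporting cells. The defining markers differed by less: Sox9 lay between 7.63 and 7.75 in XY and between 7.40 and 7.51 in XX, against 10.98 to 11.18 in XY supporting cells, and Amh between 6.09 and 6.36 in XY and between 5.65 and 6.42 in XX. Sox9 (0.25) was not called, and Amh (0.12) was called higher after alignment alone (0.26). Among the 20 largest positive differences, 4 genes had a higher mean in XY supporting cells than in XY germ cells: Cst9, Ptgr1 (12.05), Serp1 (10.75) and Trim12a (7.10). Among the 20 largest negative differences, 2 genes had a higher mean in XX supporting cells than in XX germ cells. These were Id2, at 8.97 against 8.49, and Id3, at 9.33 against 9.22. The share of all autosomal genes with such a higher supporting cell mean was not computed, so these counts have no baseline. The part of supporting cell RNA in these differences was not tested.

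Of 13 pregranulosa, 6 steroidogenic, 10 endothelial, 9 macrophage and 5 erythroid markers on autosomes, 0 of 43 were called in the limma fit. Over all autosomal genes 9.93% were called. Of the 43 markers 4 had an unadjusted p below 0.05 in that limma fit, and the list medians lay between -0.13 and 0.13. After alignment alone 1 pregranulosa, 1 steroidogenic and 1 endothelial marker were lower. Of 11 stromal markers 1 was higher, Ptch1, the hedgehog receptor and target, at 10.22, 10.22 and 10.31 in XY and 9.28, 9.04 and 8.997 in XX. Of 9 mesonephric and epithelial markers, 1 was higher (Lhx1, above) and 1 lower (Krt18, -0.797) under both scalings. With the left-out array in the fit the call of Lhx1 held and that of Krt18 was lost. Of 13 genes induced by dissociation stress 2 were higher, 1 of them, Zfp36 at 1.18, also with the left-out array in the fit, and the median level of the list lay between 7.24 and 7.36 in XY and between 6.92 and 7.29 in XX. The immediate early genes Fos (-0.45), Jun (-0.06) and Egr1 (0.12) were not called.

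The same contrast was smaller at the earlier stages. At 12.5 dpc, with 3 XY and 2 XX arrays, 142 autosomal genes were higher (0.743%) and 235 lower (1.23%). After alignment the split was 197 higher and 173 lower, and under both scalings 73 were higher (0.382%) and 92 lower (0.482%). The count of 377 fell to 109 without XX 12.5 dpc replicate 2 and to 158 without XY 12.5 dpc replicate 2. At 11.5 dpc 1 autosomal gene was called (0.00523%), and 619 had an unadjusted p below 0.05 in the limma fit. Of the 1050 genes higher at 13.5 dpc in the centred values, 79.5% had the same sign at 12.5 dpc, against 56.0% of all autosomal genes, and 54.9% at 11.5 dpc, against 49.9%. Of the 847 genes lower, 75.9% had the same sign at 12.5 dpc, against 44.0% of all, and 51.0% at 11.5 dpc, against 50.1%. These comparisons shared no arrays, although all came from 1 fit. The median difference of the genes higher at 13.5 dpc was 0.024 at 11.5 dpc, 0.347 at 12.5 dpc and 0.833 at 13.5 dpc, where the last value is set by the choice of these genes.

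Single genes differed in their levels by stage. Mgst2 and Tdgf1 already differed at 12.5 dpc by 3.57 and 2.91, and Hesx1 by 1.97. Tdgf1 was lower at each later stage in both sexes: its XY means were 11.17 at 11.5 dpc, 10.69 at 12.5 dpc and 9.65 at 13.5 dpc, and its XX means 10.30, 7.78 and 6.32. Nanos2 was at 6.04, 6.37 and 9.87 in XY over the 3 stages and at 5.99, 5.70 and 6.01 in XX. Its 12.5 dpc arrays were at 5.84, 7.09 and 6.17 in XY and at 5.78 and 5.62 in XX, and its difference there (0.67) was not called, with an adjusted p of 0.182 in the limma fit. Thus 1 of the 3 XY arrays of 12.5 dpc stood above the rest.

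On the meiotic side, Stra8 averaged 5.38, 5.66 and 5.59 in XY over these stages and 5.17, 7.38 and 10.26 in XX. At 12.5 dpc the 3 XY arrays lay between 5.52 and 5.82, and the XX arrays were uneven, at 7.97 and 6.80, both above the XY arrays. The 12.5 dpc difference was -1.72, with an adjusted p of 1.8e-06 in the limma fit, and it was lost with the XX array that had little Ddx4 included (0.277). Meioc at 12.5 dpc lay between 5.23 and 5.72 in XY, against 7.96 in 1 XX array and 5.48 in the other. Its 12.5 dpc difference of -1.21 (adjusted p 0.0403 by limma) rested on XX replicate 1, without which it was 0.032, and it was not called after alignment, with an adjusted p of 0.182 by limma. Rec8 had a 12.5 dpc difference of -1.08 (adjusted p 0.00378 by limma), which was -0.60 without XX replicate 2 (0.425). Spata22 (0.08), Terb1 (-0.16) and Dmc1 (-0.71) were not called at 12.5 dpc. Of the 20 genes with the largest negative differences at 13.5 dpc, 10 were also lower at 12.5 dpc under both scalings, and of the 20 with the largest positive differences 10 were higher.

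**Figure D3:**
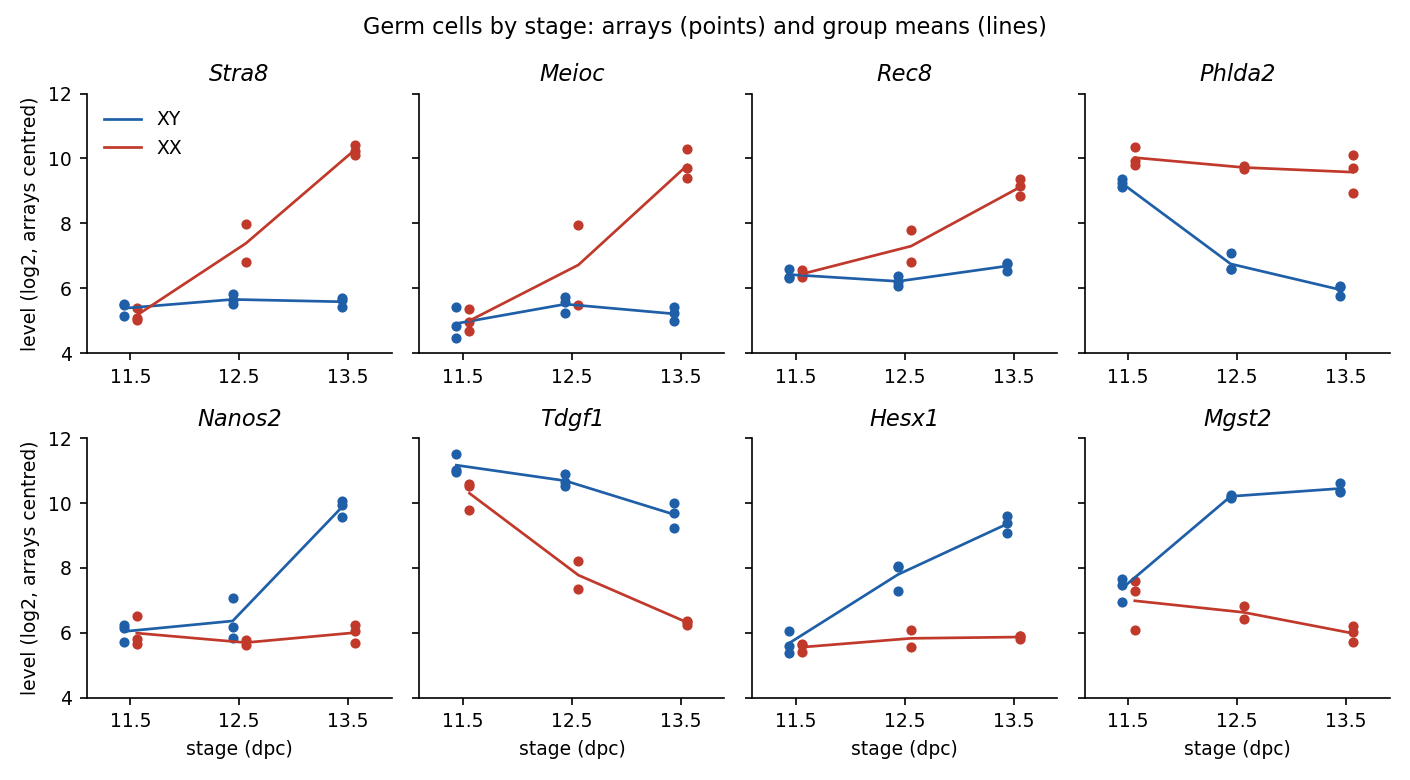
Centred log2 level (vertical axis) of 8 genes in XY and XX germ cells by stage, with 11.5 dpc at the left and 13.5 dpc at the right (horizontal axis); points are arrays and lines join group means. Stra8 averaged between 5.38 and 5.66 in XY at these stages, against 5.17, 7.38 and 10.26 in XX, Nanos2 in XY averaged 6.04, 6.37 and 9.87, and Tdgf1 means were lower at each later stage in both sexes.

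At 12.5 dpc the median of meiotic initiation was -0.54, with 3 of 12 genes lower under both scalings. Those of the synaptonemal complex and of recombination were -0.16 and -0.02, with 1 gene lower in each list. These counts stand beside 0.482% of all genes lower under both scalings at that stage. The male list had 2 higher and 0 lower at 12.5 dpc under both scalings, and the BMP list 2 lower. The NODAL list had 4 higher at 12.5 dpc, against 3 at 13.5 dpc, so not each list had fewer calls at the earlier stage. Phlda2 (-2.97), Id2 (-2.06), Nr6a1 (-1.89), Aldh1a1 (1.59), Lhx1 (1.67), Etv1 (2.80) and Cst9 (2.91) were called at 12.5 dpc under both scalings. Among these 7 genes the calls of Phlda2, Nr6a1 and Aldh1a1 were lost with the XX array with little Ddx4 included.

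The change of the sex difference between 11.5 and 13.5 dpc was tested directly. It was called for 766 autosomal genes (4.01%), of which 383 were among the genes higher in XY at 13.5 dpc and 352 among those lower. Under both scalings 620 were called (3.25%). Of the 40 genes with the largest differences, 39 were called for this change under both scalings. The exception was Tex12, which was called in the centred values alone. These genes were chosen by their 13.5 dpc difference, which is part of the change, so this count was largely fixed by the choice. For Sycp3 the change was -0.38, with an adjusted p of 0.644 in the limma fit, and its means at 11.5 dpc were 8.61 in XY and 9.35 in XX.

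**Figure D4:**
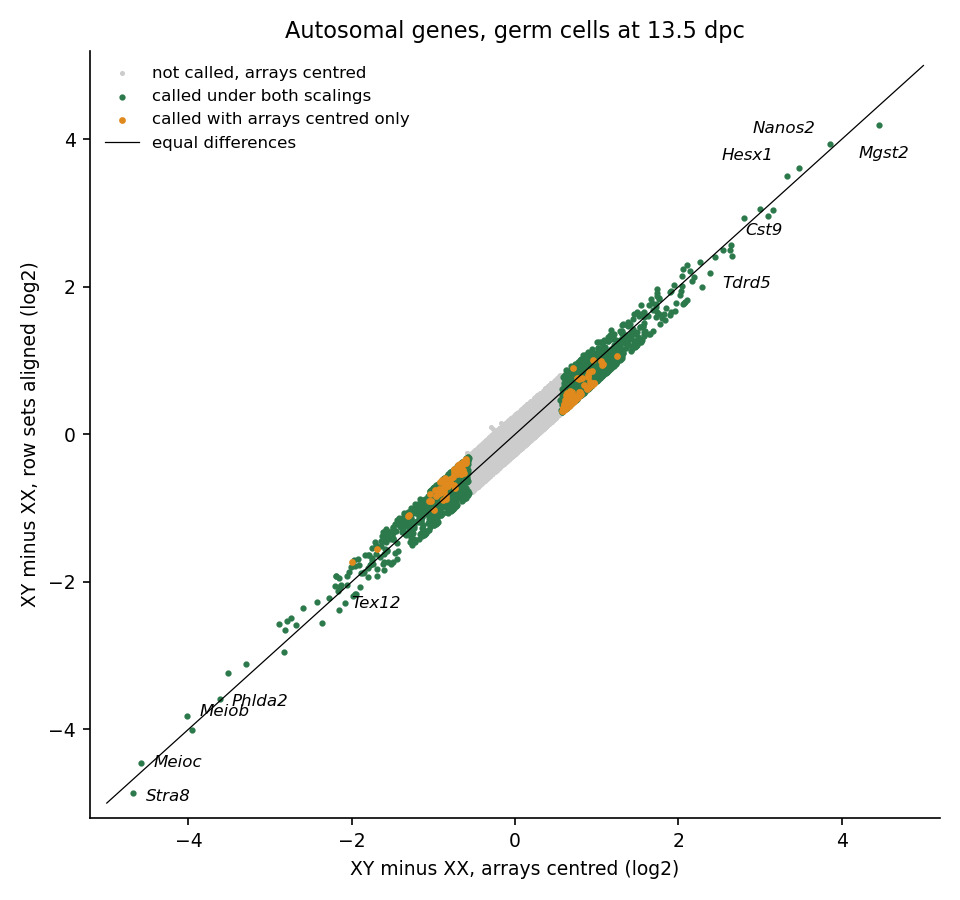
Log2 difference, XY minus XX at 13.5 dpc, of each autosomal gene from centred arrays (horizontal axis) and after the sets of probe sets were aligned (vertical axis). Genes with large differences lie near the diagonal; 0 of the called genes changed sign, and 11 genes called beyond 1 log2 unit in the centred values were not called after alignment.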

How the data were processed

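Cells were sorted from pooled gonads and their RNA was hybridised to Affymetrix Gene Level 1.0 ST arrays, per the labels' protocols. The authors deposited log2 values, and the submitters' processing notes name RMA as the tool. A version and a genome build are not given in the sources used here. All columns were matched to samples by the sample identifier, and the groups were taken from the sample titles. Of 35557 probe sets, 21789 had 1 gene symbol in the platform annotation and were used. For a gene with several probe sets (999 genes) the one with the highest mean was kept. Arrays were centred on the median of autosomal genes, with 6.8566 added back. limma 3.58.1 in R 4.3.3 fitted 6 group means to 17 germ cell arrays, and p-values were Benjamini-Hochberg adjusted over 19938 genes with a threshold of 0.05. Depth is set by the number of arrays. Fits that combined aligned sets with a replicate block, with the 6 compared arrays alone or with an array left out were chosen after seeing the data. Members and lists were chosen with earlier results of these data known. A gene can belong to several lists and is then counted in each. Genes were named by rule: the 20 autosomal genes with the largest difference in each direction among those called with no overlap, listed members, Stra8, Nanos2, Meioc, Tdgf1, Dnmt3l, Rec8 and Sycp3, and genes whose probe sets disagree. On simulated data the fit recovered 71 of 100 genes changed by 1 log2 unit and 100 of 100 changed by 2, with 8 unchanged genes called. The simulated noise was independent between genes. It held no shifts shared by sets of probe sets, so these numbers do not describe errors from such shifts. The 13.5 dpc samples were not treated as paired by replicate number. Same-numbered XY and XX arrays had deviations that correlated at -0.2405, 0.0304 and -0.0207 in the centred values. Other pairs there lay between -0.1927 and 0.1894. After alignment the same-numbered arrays correlated at 0.0339, 0.19 and 0.031, and other pairs lay between -0.1618 and 0.1334. These values do not settle whether the numbers pair the samples. The alternatives were another centring, quantile normalisation, aligned row sets, other sets of arrays, a replicate block, the mean of probe sets, array weights, a trended and robust prior, a filter on dim genes and leaving out each array. Promoters came from the RefSeq table of GRCm38.p6.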

Additional observations from a re-analysis of the deposited data

Results flagged for a closer look

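The sex difference in germ cells was not the same at 13.5 and 11.5 dpc by a test of the difference itself, and the following results stood out for that reason. The change was called for 766 autosomal genes. Stra8 changed by -4.89 and Meioc by -4.49, from no call at 11.5 dpc, and Rec8 by -2.41. Nanos2 changed by 3.81. Tdgf1 changed by 2.46, with an adjusted p of 3.12e-07 in the limma fit and 0.0528 where the XX 12.5 dpc array with little Ddx4 was included.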

How the results depend on the processing

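The 13.5 dpc count of 1897 autosomal genes was 3630 with row sets aligned, 3331 with row sets aligned and a replicate block, 7669 with array weights and 874 with all 18 germ cell arrays. The replicate block alone gave 1773, quantile normalisation 1959, no centring 1475 and a fit of the compared arrays alone 2486. Leaving out 1 array gave 1321 to 1813, and with row sets aligned 3060, 3329 and 2888 without XX replicates 1, 2 and 3, and 2995, 3305 and 2976 without XY replicates 1, 2 and 3. The count of 766 for the change from 11.5 dpc was 1624 aligned, 130 with 18 arrays and 2463 with array weights, and 542 to 878 without 1 array. The 12.5 dpc count of 377 was 699 with supporting cells in the fit, 235 with 18 arrays and 90 with array weights, and 109 to 417 without 1 array. The 11.5 dpc count of 1 was 9 with no centring, 2 aligned, 23 with the compared arrays alone, 13 with a replicate block and 14 with a trended and robust prior. In limma it was 0 with 18 arrays (276 at an unadjusted p below 0.05) and 0 with array weights (548), and 0 to 9 without 1 array. The cause of these shifts was not tested. Of 167 called genes followed over the 13.5 dpc alternatives, 79 kept their call in each, 0 reversed sign, and 78 lost it with 18 arrays, 21 with no centring, 10 with row sets aligned and 11 with the replicate block. The number of arrays limits the precision.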

Other observations

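X-linked genes were outside the autosomal comparison and are given here as values. Of 739 tested, 32 were higher in XY germ cells and 124 lower in the centred values, while 5.5% of autosomal genes were higher and 4.43% lower. Their median difference was -0.081, and -0.041 with row sets aligned, against 0.038 and 0.028 over autosomal genes. The lower genes included 3 members of the Rhox cluster of reproductive homeobox genes, Rhox6 (-2.92), Rhox9 (-2.63) and Rhox13 (-2.27). These 3 genes were chosen after their values were seen. Their probe sets can share sequence with near copies in the cluster, which was not tested. Of 9 Y-linked genes tested 6 were higher in XY.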
